A study of Mus musculus with 24 samples.

Results

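The 10 genes described here encode receptors and bridging proteins with which macrophages take up dying cells and modified lipoproteins: Mertk, Axl, Timd4, Gas6, Mfge8, Stab1, Marco, Msr1, Cd36 and Scarb1. They were chosen by name, from their known function, but with earlier results of these data known. All 10 were found among the 45706 genes of the count table by Ensembl identifier. Their reads were followed in 24 RNA sequencing libraries of tissue-resident macrophages of female C57BL/6J mice, aged 8 to 12 weeks per the labels, with 3 libraries in each of 8 groups. Microglia (MG, brain), Kupffer cells (KCs, liver), peritoneal macrophages (PMs) and alveolar macrophages (AMs, lung) were FACS sorted ex vivo, and macrophage-like cells grown from the same organs for a fortnight in PEI-coated flasks (MG-LCs, KC-LCs, PM-LCs and AM-LCs) made up the in vitro groups. MG-LCs received M-CSF and IL-34, KC-LCs and PM-LCs received M-CSF, all of them at lowered oxygen and with high glucose, while AM-LCs received GM-CSF at atmospheric oxygen without glucose, so that tissue and medium cannot be told apart in vitro in any pair with MG-LCs or AM-LCs. KC-LCs and PM-LCs shared growth factor, oxygen and glucose. All groups came from wild-type mice, cells of several mice were pooled for a culture flask (1 liver per flask for KCs), and the sorted cells and the cultures differ in medium, time and surface at once. The sorting gates were CD45 and CD11b for MG, F4/80 and CD115 in addition for PMs, Siglec-F in addition to CD45 and CD11b for AMs, and TIM-4, the product of Timd4, for KCs. Timd4 in KCs is therefore a property of the gate, and its values there are given as a description.

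A dying cell exposes phosphatidylserine on its surface. Macrophages recognize this lipid either directly, with receptors such as TIM-4 and stabilin-1, or through soluble bridging proteins: GAS6 links it to the receptor tyrosine kinases MERTK and AXL, and MFG-E8 links it to integrins. Scavenger receptors of class A (MARCO and MSR1, also named SR-A) bind bacteria, particles and modified lipoproteins with collagen-like extracellular stems, while those of class B (CD36 and SCARB1, also named SR-BI) bind oxidized lipoproteins, fatty acids and high-density lipoprotein. KCs remove aged blood cells and particles from the sinusoid, AMs clear surfactant and inhaled particles, MG clear dying neurons and synapses, and TIM-4 is a textbook marker of KCs and large PMs.

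The libraries held 29569486 to 47105111 reads assigned to genes. Expression is given as CPM, read counts relative to the library size after TMM scaling over all 24 libraries, and 3 reads, the upper limit that a count of 0 allows, stand for 0.0661 to 0.115 CPM depending on the library (counting error only). Positive log2 fold changes mean more RNA ex vivo than in vitro unless another order is named, and a gene was called at an adjusted p under 0.05 (edgeR's quasi-likelihood test, Benjamini-Hochberg over all genes tested). The 8 general macrophage markers had reads in all 8 groups, and the markers of each tissue summed highest in the sorted cells of that tissue, from 24090 to 24720 CPM for 6 microglia markers in MG and from 14760 to 25350 CPM for 6 Kupffer cell markers in KCs. In vitro, these sums were lower, with 505 to 3428 CPM in MG-LCs and 919 to 1239 CPM in KC-LCs. The Kupffer cell markers did not set KC-LCs apart from MG-LCs (726 to 2312 CPM) or PM-LCs (797 to 1641 CPM), while AM-LCs had 136 to 206 CPM. The peritoneal macrophage markers summed to 177 to 802 CPM in PM-LCs and to 27.0 to 1686 CPM in MG-LCs. Libraries stood apart in RNA of other cells: 8 fibroblast and mesothelium markers summed to 30930 CPM in MG-LC library 1 against 7.39 and 1012 CPM in MG-LC libraries 2 and 3, to 2208 CPM in PM-LC library 2 against 22.9 and 366 CPM, and to 1667 CPM in AM-LC library 3 against 17.1 and 181 CPM. KC library 1 had the highest sum of 6 monocyte and dendritic cell markers, 819 CPM against 162 and 175 CPM. In such bulk libraries, fewer cells of a type and less RNA per cell cannot be told apart.

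The 10 genes fell into a few patterns over the change from sorted to cultured cells (see the plot of each gene by library). Timd4 and Marco, high in sorted cells of particular tissues, had at most 6.62 CPM in the MG-, KC- and PM-LCs. Both bridging protein genes, Gas6 and Mfge8, were called higher in vitro in all 4 populations, for Gas6 in MG and Mfge8 in KCs with calls that single libraries decided. Msr1 and Cd36, almost silent in sorted MG, were abundant in MG-LCs. Mertk was higher ex vivo in MG, KCs and AMs, and Axl was lower in vitro in KCs and AMs but higher in vitro in MG. To set a pair of receptor genes that were lower in culture beside both bridging protein genes, the 250 bases before the RefSeq start (GRCm38.p6) are printed 5′ to 3′ on the strand of the gene for Timd4 (chr11:46810549-46810798, plus strand), Marco (chr1:120505025-120505274, minus strand), Gas6 (chr8:13494536-13494785, minus strand) and Mfge8 (chr7:79149061-79149310, minus strand). Capitals mark matches, on either strand, to GAGGAA (the core bound by PU.1), TGCTGA (part of a MAF recognition element), TGANTCA (AP-1), AGGTCA (a nuclear receptor half-site), GGGCGG (GC box), TATAAA or ACGTG (hypoxia response element).
Timd4: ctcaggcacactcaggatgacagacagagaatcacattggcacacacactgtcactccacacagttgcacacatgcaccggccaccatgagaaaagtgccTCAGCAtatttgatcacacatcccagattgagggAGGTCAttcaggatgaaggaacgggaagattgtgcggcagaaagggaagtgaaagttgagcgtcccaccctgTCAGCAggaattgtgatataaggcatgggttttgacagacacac
Marco: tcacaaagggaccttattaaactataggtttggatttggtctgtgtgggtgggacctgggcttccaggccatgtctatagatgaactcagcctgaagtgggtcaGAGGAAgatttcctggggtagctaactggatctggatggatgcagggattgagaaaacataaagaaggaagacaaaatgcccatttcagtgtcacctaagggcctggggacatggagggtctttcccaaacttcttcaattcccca
Gas6: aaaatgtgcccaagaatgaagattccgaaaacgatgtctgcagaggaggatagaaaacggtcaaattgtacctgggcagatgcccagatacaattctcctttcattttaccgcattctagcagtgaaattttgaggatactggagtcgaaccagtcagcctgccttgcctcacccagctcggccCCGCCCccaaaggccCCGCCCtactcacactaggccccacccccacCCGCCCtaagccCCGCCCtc
Mfge8: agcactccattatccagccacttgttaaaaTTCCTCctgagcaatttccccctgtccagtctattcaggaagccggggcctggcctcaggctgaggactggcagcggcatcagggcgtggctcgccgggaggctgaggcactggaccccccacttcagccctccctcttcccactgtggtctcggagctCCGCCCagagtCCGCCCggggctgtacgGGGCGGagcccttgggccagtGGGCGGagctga
Gas6 and Mfge8 held 4 GC boxes each, Mertk, which was higher ex vivo in 3 populations, held 3, Cd36, which was higher in vitro in 4, held 2, and Axl held 1. The Cd36 window (chr5:17835897-17836146) lies within the coordinates of the gene (chr5:17781690-17888801), not before its outermost start. The windows of Timd4 and Marco, which were lower in vitro where tested, and of Stab1, which was not called in MG, KCs or PMs, held no match to GGGCGG. In all, 32.7% of the 32851 promoter windows of the same length held this motif. The Timd4 window held 2 matches to TGCTGA (in 16.1% of all windows) and 1 to AGGTCA (in 14.0%), and those of Marco and Mfge8 held 1 match each to GAGGAA (in 23.3%). Axl and Stab1 also held 1 match each to GAGGAA, Stab1 and Cd36 1 each to TGCTGA, and Cd36 1 to AGGTCA. A window was found for 8 of the 10 genes, not for Msr1 and Scarb1. The matches describe letters, not binding, and their part in the expression was not tested.

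**Figure D1:**
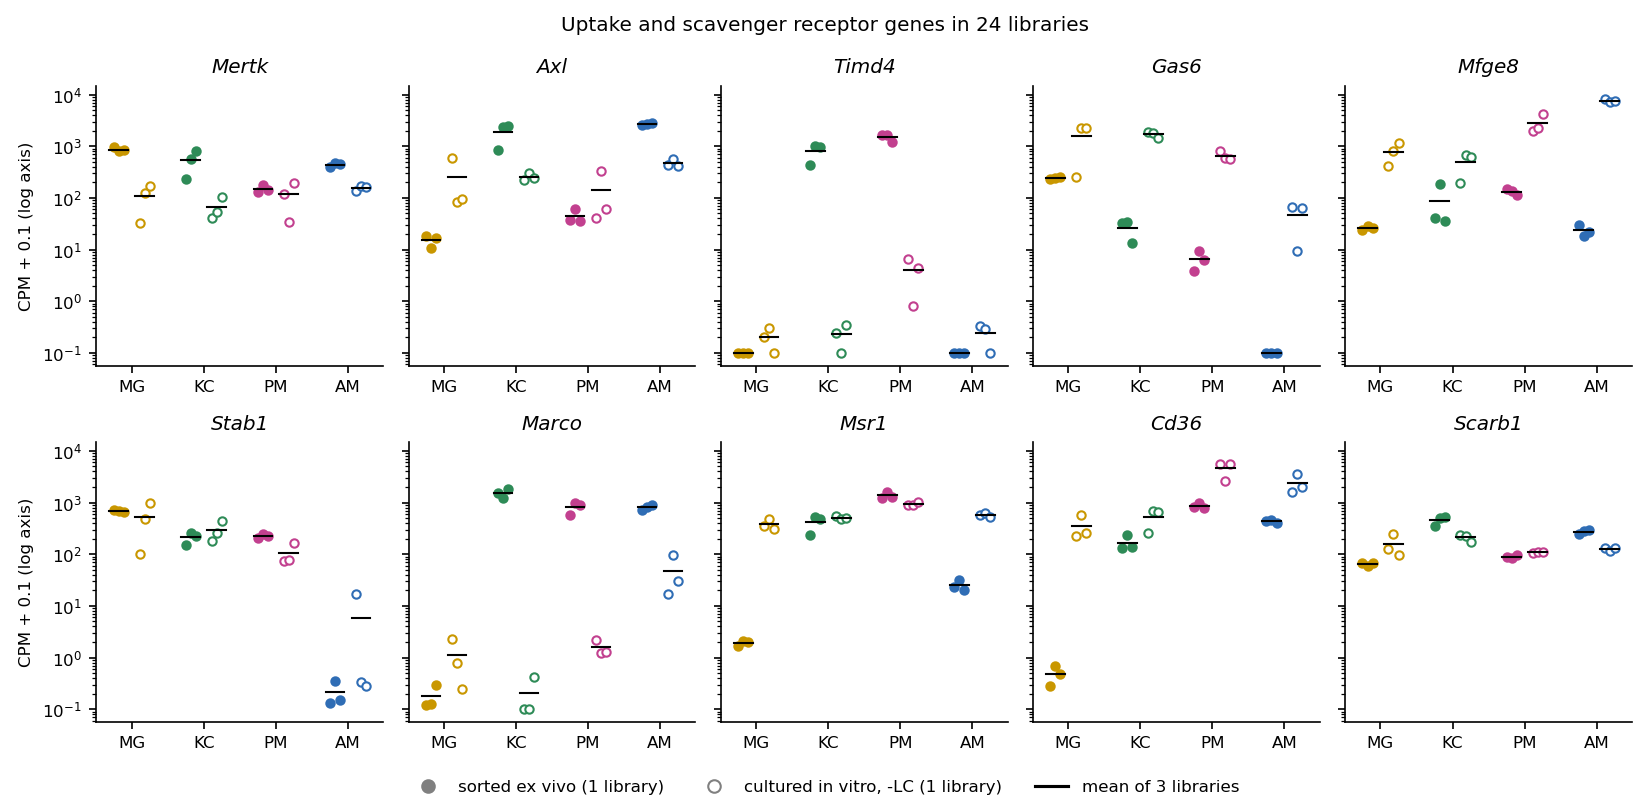
Expression of the 10 genes in each library, as CPM + 0.1 on a log axis, for sorted (filled points) and cultured cells (open points) of the 4 populations, with the mean of 3 libraries as a line. Timd4 and Marco lie at or under 6.62 CPM in the MG-, KC- and PM-LCs, and the open points of Mfge8 lie above the filled points in every population, as do those of Gas6 except for 1 MG-LC library.

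Mertk (chr2:128698956-128802894, plus strand) encodes the phosphatidylserine-dependent engulfment receptor MERTK. MG had 953, 799 and 836 CPM of Mertk, and MG-LCs had 32.03, 122 and 170 CPM. KCs had 231, 577 and 819 CPM, and KC-LCs had 40.3, 53.5 and 104.8 CPM. Sorted and cultured libraries did not overlap in either population, and the lowest KC value belonged to KC library 1. AMs had 398, 469 and 457 CPM against 135, 173 and 165 CPM in AM-LCs, again without overlap. PMs, with 129, 181 and 141 CPM, lay within the range of PM-LCs, with 121, 33.7 and 197 CPM. The log2 fold change was 2.96 ± 0.61 (SE) in MG (adjusted p = 0.0107), 3.07 ± 0.56 in KCs (adjusted p = 0.00612) and 1.47 ± 0.15 in AMs (adjusted p = 0.000356), but 0.35 ± 0.55 in PMs (adjusted p = 0.668). The call in AMs ended when all 24 libraries shared 1 model (adjusted p = 0.0543). Mean expression in culture was 12.5% of that ex vivo in MG, 12.2% in KCs and 35.7% in AMs. The change differed between populations in the interaction test (adjusted p = 0.0269), with differences of 2.64 ± 0.79 between MG and PMs (adjusted p = 0.0234) and 2.68 ± 0.79 between KCs and PMs (adjusted p = 0.0304). The interaction lost its call without PM library 1 (adjusted p = 0.0657), PM library 3 (0.0614) or PM-LC library 3 (0.0769).

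Over the sorted cells, Mertk ordered as MG (863 ± 80.6 CPM, SD, n = 3), KCs (542 ± 296), AMs (442 ± 37.9) and PMs (150 ± 27.6). MG and KCs did not differ beyond their spread (log2 fold change 0.62 ± 0.34, adjusted p = 0.168), nor did KCs and AMs (0.31 ± 0.34, adjusted p = 0.488), but the first pair did without KC library 3 (adjusted p = 0.0201) and the second without KC library 1 (0.00956). PMs were lower than each of the other populations, with a log2 fold change of PMs minus AMs of -1.54 ± 0.35 (adjusted p = 0.00446). The difference between MG and AMs (0.93 ± 0.34, adjusted p = 0.0379) was no longer called without any 1 of the MG or AM libraries or of PM libraries 1 and 3 (adjusted p = 0.0505 to 0.0895), nor with all 24 libraries in 1 model (0.17). In vitro, the means spanned 66.2 ± 34.1 CPM in KC-LCs to 158 ± 20.4 CPM in AM-LCs, and no pair differed (adjusted p of at least 0.257).

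Axl (chr7:25757273-25788705, minus strand) encodes the related receptor tyrosine kinase AXL, which depends on GAS6 as its ligand. Its order over the sorted cells differed from that of Mertk: AMs had 2574, 2675 and 2846 CPM, KCs 863, 2323 and 2450 CPM, PMs 37.4, 61.3 and 35.3 CPM, and MG 18.4, 10.8 and 16.4 CPM. AMs and KCs did not differ (log2 fold change of KCs minus AMs -0.51 ± 0.36, adjusted p = 0.264), KCs exceeded PMs by 5.39 ± 0.43 (adjusted p = 3.47e-06), and MG were lower than PMs (MG minus PMs -1.61 ± 0.37, adjusted p = 0.00386), which was not called with all 24 libraries in 1 model (0.0942). In vitro, AM-LCs had 436, 566 and 417 CPM, and KC-LCs had 226, 304 and 248 CPM. MG-LCs had 588, 83.8 and 97.1 CPM, and PM-LCs had 40.9, 333 and 61.9 CPM. The highest MG-LC and PM-LC values came from MG-LC library 1 and PM-LC library 2, which also had the highest sums of fibroblast and mesothelium markers in their groups (30930 and 2208 CPM), and the part of these cells in the Axl reads was not tested.

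Axl was higher ex vivo in AMs (log2 fold change 2.51 ± 0.15, adjusted p = 6.11e-05) and KCs (2.89 ± 0.44, adjusted p = 0.00327), where its mean in culture was 17.5% and 13.8% of that ex vivo. In MG it was higher in vitro (-4.13 ± 0.90, adjusted p = 0.0129). Without MG-LC library 1, the change in MG was -2.62 (adjusted p = 0.000826), and the call was lost without MG library 1, 2 or 3 (adjusted p = 0.0632 to 0.0689). In PMs the difference of -1.70 ± 0.76 was not called (adjusted p = 0.137) and came to -0.17 without PM-LC library 2 (adjusted p = 0.698). The change of Axl differed between populations (interaction, adjusted p = 6.76e-05), by -6.93 ± 1.06 on the log2 scale between MG and KCs (adjusted p = 0.000123) and by -6.59 ± 1.05 between MG and AMs (adjusted p = 0.000139). Between KCs and AMs, the difference in change of 0.34 ± 0.96 was not called (adjusted p = 0.893).

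Set beside each other per kb of exon, Mertk made up 98.5% ± 0.292 of the sum of Mertk and Axl in MG (SD, n = 3) and 79.9% ± 2.38 in PMs, but 24.7% ± 2.91 in KCs and 16.0% ± 0.870 in AMs. Thus, MERTK transcripts prevailed in sorted MG and PMs and AXL transcripts in sorted KCs and AMs, with no overlap between these pairs of populations. In vitro, the share was 22.3% ± 9.17 in KC-LCs and 28.0% ± 2.98 in AM-LCs. It spread from 5.94% to 67.0% in MG-LCs and from 10.5% to 78.7% in PM-LCs, with the lowest values in MG-LC library 1 and PM-LC library 2.

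Timd4 (chr11:46810800-46844332, plus strand) encodes TIM-4, which tethers apoptotic cells through phosphatidylserine. Its reads were confined to 2 of the sorted populations: PMs had 1630, 1651 and 1195 CPM and KCs, which were gated on TIM-4, had 432, 1027 and 955 CPM. No read of Timd4 was counted in the 3 MG or the 3 AM libraries, which allows up to 0.0241 CPM in MG and 0.0266 CPM in AMs over the group (3 reads). In vitro, PM-LCs had 6.62, 0.71 and 4.30 CPM and KC-LCs 0.14, 0 and 0.25 CPM, while MG-LCs and AM-LCs had at most 0.23 CPM. Thus, PM-LC values lay far below every PM value, and in KC-LCs a total of 16 reads was counted. The log2 fold change in PMs was 8.59 ± 0.85 (adjusted p = 0.000492), and the mean in PM-LCs was 0.260% of that in PMs. KC-LCs were at 0.0164% of the mean in KCs, a value that the gate on sorted KCs enters. Timd4 did not pass the filter on low counts in MG or AMs against their cultures.

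Gas6 (chr8:13465374-13494490, minus strand) encodes the bridging protein and TAM receptor ligand GAS6. It shares 34 exon bases with Tmem255b on the opposite strand, and reads in them cannot be assigned, as the library kit did not mark the strand. Among sorted cells, MG had the most with 233, 239 and 257 CPM, followed by KCs with 32.3, 33.6 and 13.2 CPM and PMs with 3.74, 9.22 and 6.13 CPM. No read of Gas6 was counted in the 3 AM libraries. All neighbours in this order differed, by 3.15 ± 0.40 between MG and KCs (adjusted p = 0.000199) and by 2.04 ± 0.39 between KCs and PMs (adjusted p = 0.00324). In vitro, KC-LCs had 1867, 1778 and 1428 CPM, MG-LCs 249, 2290 and 2283 CPM, PM-LCs 793, 588 and 567 CPM, and AM-LCs 66.1, 9.12 and 62.9 CPM. Every cultured library of KCs, PMs and AMs lay above every sorted library of the same population, and only MG-LC library 1 lay within the MG range. That library had the highest sum of fibroblast and mesothelium markers (30930 CPM) and the lowest sum of microglia markers in its group (505 CPM against 1359 and 3428 CPM), and their part in this value was not tested.

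Mean Gas6 was 64.2-fold higher in KC-LCs than in KCs (log2 fold change -5.97 ± 0.47, adjusted p = 0.000291) and 102-fold higher in PM-LCs than in PMs (-6.67 ± 0.41, adjusted p = 7.41e-05). Against the floor of 3 reads over the 3 AM libraries, the gene was at least 1731-fold higher in AM-LCs (adjusted p = 0.00213). In MG the difference was smaller, 6.62-fold on the means (log2 fold change -2.76 ± 0.80, adjusted p = 0.0322). This call was lost without MG library 1, 2 or 3 (adjusted p = 0.112 to 0.120), without MG-LC library 2 (0.0743) or 3 (0.0690), with limma-voom (0.0533) and with a replicate block (0.0936), whereas without MG-LC library 1 the value was -3.29 (adjusted p = 0.000113). The change differed between MG and KCs by 3.28 ± 0.95 on the log2 scale (adjusted p = 0.0237) and between MG and PMs by 3.95 ± 0.97 (adjusted p = 0.00746). Between KCs and PMs, the difference of 0.67 ± 0.94 was not called (adjusted p = 0.715).

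Mfge8 (chr7:79133768-79149060, minus strand) encodes MFG-E8, the bridging protein between phosphatidylserine and integrins. Sorted cells had little of it, with 23.99, 28.3 and 25.7 CPM in MG, 40.9, 188 and 35.4 CPM in KCs, 147, 133 and 112 CPM in PMs and 29.9, 18.5 and 22.2 CPM in AMs. MG and AMs did not differ (log2 fold change 0.10 ± 0.50, adjusted p = 0.881), nor did KCs and PMs (-0.58 ± 0.50, adjusted p = 0.393). Without KC library 2, the highest of its group, the latter value was -1.84 (adjusted p = 0.000158). MG were lower than KCs (MG minus KCs -1.80 ± 0.52, adjusted p = 0.0149), a call that was lost without any 1 of the MG libraries (adjusted p = 0.0503 to 0.0652). Without KC library 2 the value came to -0.54 (adjusted p = 0.0538).

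In culture, Mfge8 was highest in AM-LCs, with 8320, 7096 and 7563 CPM, followed by PM-LCs with 1958, 2244 and 4248 CPM. MG-LCs had 406, 810 and 1138 CPM and KC-LCs had 195, 671 and 612 CPM. All cultured libraries lay above all sorted libraries of their population, by the smallest margin in KCs. The mean was 326-fold higher in AM-LCs than in AMs (log2 fold change -8.36 ± 0.27, adjusted p = 1.67e-05), and Mfge8 ranked as gene 11 of all genes by mean CPM in AM-LCs. It was 21.5-fold higher in PM-LCs (-4.43 ± 0.36, adjusted p = 0.000229), 30.2-fold higher in MG-LCs (-4.96 ± 0.45, adjusted p = 0.0011) and 5.60-fold higher in KC-LCs (-2.47 ± 0.75, adjusted p = 0.0372). The call in KCs was lost without KC library 1 (adjusted p = 0.0734), KC library 3 (0.102), KC-LC library 2 (0.114) or KC-LC library 3 (0.0939), and without KC library 2, the highest of its group, the value was -3.65 (adjusted p = 0.0126). The change in AMs exceeded that in MG by 3.43 ± 0.78 on the log2 scale (adjusted p = 0.00337), that in PMs by 3.92 ± 0.78 (adjusted p = 0.00187) and that in KCs by 5.86 ± 0.81 (adjusted p = 6.05e-05).

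Of both bridging proteins per kb of exon, Gas6 held 94.5% ± 0.477 in MG, 41.6% ± 17.3 in KCs and 8.31% ± 3.49 in PMs (SD, n = 3). It held 71.9% ± 16.5 in MG-LCs, 86.3% ± 7.32 in KC-LCs, 31.7% ± 11.5 in PM-LCs and 1.06% ± 0.717 in AM-LCs. Gas6 thus prevailed in cultures of brain and liver, and Mfge8 in those of peritoneum and lung (see the plot of shares in pairs of genes). In the fit of the cultured libraries, Mfge8 was higher in AM-LCs, with log2 fold changes of -3.30 for MG-LCs minus AM-LCs (adjusted p = 0.00809) and -3.97 for KC-LCs minus AM-LCs (adjusted p = 0.00495). Gas6 was lower in AM-LCs, with 5.09 (adjusted p = 0.011) and 5.17 (adjusted p = 0.0103) for the same pairs. These 4 calls held in each fit that left out 1 library.

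**Figure D2:**
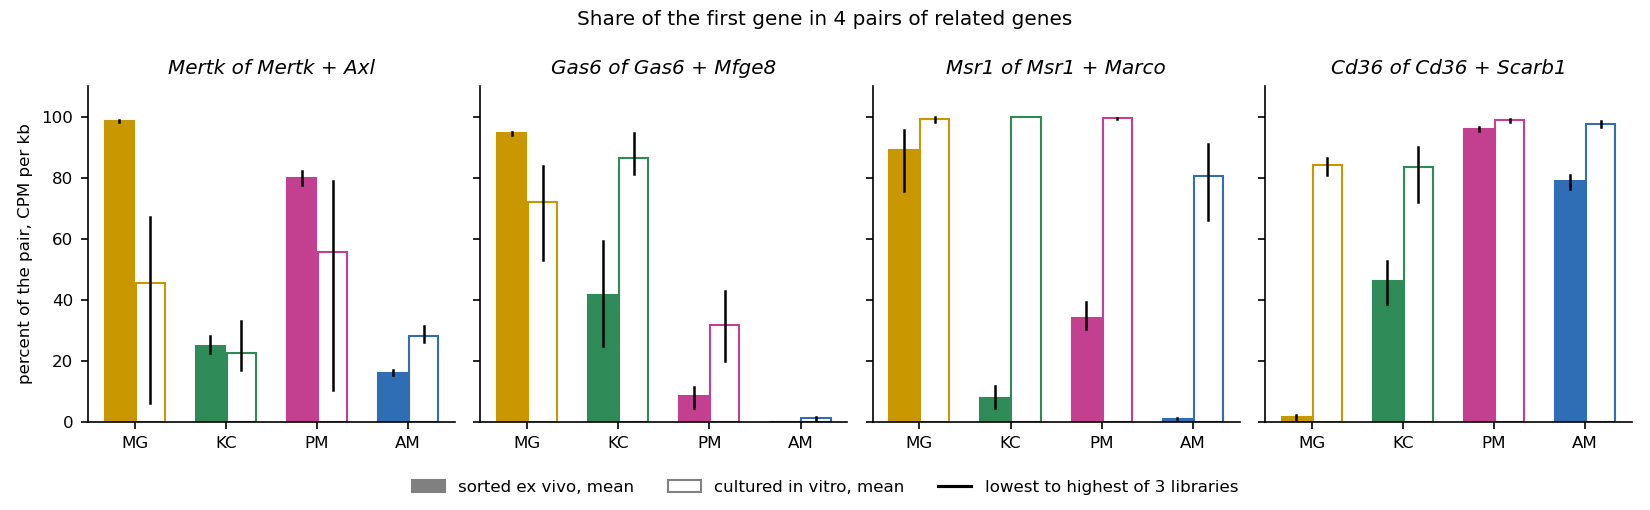
Share of the first gene in the sum of both genes of a pair (percent, from CPM per kb of exon), as the mean of 3 libraries, filled for sorted and open for cultured cells, with a line from the lowest to the highest library. Mertk made up 98.5% of its pair in MG and 16.0% in AMs, and Msr1 rose from 7.89% in KCs to 99.9% in KC-LCs.

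Stab1 (chr14:31139013-31168641, minus strand) encodes stabilin-1, a large receptor that binds phosphatidylserine and modified lipoproteins and is also abundant in sinusoidal endothelium. It shares 112 exon bases with Nt5dc2 on the opposite strand, with the same limit as for Gas6. MG had 723, 677 and 650 CPM, PMs 202, 242 and 221 CPM, and KCs 151, 256 and 230 CPM, whereas AMs had 0.03, 0.26 and 0.05 CPM. MG were higher than PMs (log2 fold change 1.57 ± 0.29, adjusted p = 0.000919), PMs and KCs did not differ (adjusted p = 0.883), and AMs were lower than each of the others. The first difference was not called with all 24 libraries in 1 model (adjusted p = 0.226). The 8 endothelial markers summed to 321 to 520 CPM in KCs, of which Stab2 made up 301 ± 85.7 CPM, and to 28.5 to 44.98 CPM in KC-LCs. The part of endothelial RNA in the Stab1 reads of KCs was not tested.

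Of the genes tested in all of MG, KCs and PMs, Stab1 alone was called in none of them against the cultures. MG-LCs had 102, 470 and 976 CPM, with the lowest value in MG-LC library 1, and the log2 fold change was 0.37 ± 0.72 (adjusted p = 0.689). KC-LCs had 182, 261 and 439 CPM (-0.44 ± 0.37, adjusted p = 0.385). PM-LCs had 72.8, 76.0 and 165 CPM, all below the PM values (1.08 ± 0.34, adjusted p = 0.051), and this difference was called without PM-LC library 3 (1.61, adjusted p = 0.000732), with DESeq2 (adjusted p = 0.00793) and with limma-voom (0.0255). AM-LCs had 16.5, 0.23 and 0.18 CPM, so that 1 library decided their mean of 5.63 CPM, and the gene did not pass the filter on low counts in AMs against AM-LCs. The interaction over all 24 libraries (adjusted p = 0.0189) was lost without AM library 1 (0.0664), AM library 3 (0.0694) or AM-LC library 1 (0.321), and with limma-voom (0.194).

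Marco (chr1:120474538-120505024, minus strand) encodes a class A scavenger receptor for bacteria and inhaled particles. KCs had 1518, 1203 and 1855 CPM, PMs 583, 984 and 903 CPM and AMs 719, 816 and 892 CPM, while MG had 0.02, 0.03 and 0.19 CPM. PMs and AMs did not differ (log2 fold change 0.04 ± 0.31, adjusted p = 0.946). KCs lay above both, by 0.89 ± 0.31 (adjusted p = 0.0424) and 0.93 ± 0.31 (adjusted p = 0.0303), but the first call was lost in 9 of the 12 fits that left out 1 sorted library (adjusted p up to 0.159 without PM library 1) and the second without KC library 3 or any AM library (up to 0.104 without AM library 1).

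Marco was almost lost from culture. KC-LCs had 0, 0 and 0.33 CPM, or 13 reads in all, and PM-LCs had 2.07, 1.14 and 1.19 CPM. MG-LCs had 2.15, 0.70 and 0.14 CPM and were not tested against MG, as the gene did not pass the filter on low counts. AM-LCs kept more, with 16.7, 96.4 and 30.3 CPM, which was still below all AM libraries. The mean in culture was 0.00717% of that ex vivo in KCs (log2 fold change 13.78 ± 1.22, adjusted p = 0.000495), 0.178% in PMs (9.14 ± 0.41, adjusted p = 2.63e-05) and 5.91% in AMs (4.08 ± 0.63, adjusted p = 0.00202). The change was smaller in AMs than in KCs, by 9.66 ± 1.31 on the log2 scale (adjusted p = 4.72e-05), and than in PMs, by 5.05 ± 1.11 (adjusted p = 0.00415).

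Msr1 (chr8:39581685-39642673, minus strand) encodes the class A receptor SR-A, a main receptor for acetylated and oxidized lipoproteins. In sorted cells, the group means ranged from 1.83 to 1368 CPM: PMs had 1240, 1569 and 1296 CPM, KCs 238, 530 and 484 CPM, AMs 23.0, 30.9 and 20.6 CPM, and MG 1.61, 1.95 and 1.93 CPM. Each neighbour in this order differed, with log2 fold changes of -1.71 ± 0.27 for KCs minus PMs (adjusted p = 0.000608), 4.08 ± 0.30 for KCs minus AMs (adjusted p = 1.18e-06) and -3.81 ± 0.31 for MG minus AMs (adjusted p = 1.26e-06). In culture, edgeR called no pair of populations, with the lowest adjusted p between MG-LCs and PM-LCs (-1.27, adjusted p = 0.051). This pair was called with limma-voom (0.0272), DESeq2 (6.42e-10) and all 24 libraries in 1 model (0.00969), and DESeq2 also called KC-LCs against PM-LCs (2.86e-05), MG-LCs against AM-LCs (0.0102) and PM-LCs against AM-LCs (0.00164). PM-LCs had 893, 878 and 1037 CPM, AM-LCs 564, 623 and 517 CPM, KC-LCs 554, 473 and 492 CPM, and MG-LCs 356, 478 and 312 CPM.

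The 3 MG-LC libraries lay 209-fold above MG on the means (log2 fold change -7.75 ± 0.30, adjusted p = 0.000581), and AM-LCs lay 22.9-fold above AMs (-4.52 ± 0.20, adjusted p = 3.21e-05). KCs and KC-LCs overlapped (-0.24 ± 0.33, adjusted p = 0.595). PMs lay above PM-LCs without overlap, by 0.55 ± 0.17, which did not pass the test (adjusted p = 0.0517) but did with DESeq2 (0.00651), with limma-voom (0.0325) and without PM-LC library 3 (0.0222). The change in MG differed from that in PMs by -8.25 ± 0.39 on the log2 scale (adjusted p = 9.69e-11). Per kb of exon, Msr1 made up 7.89% ± 3.65 of the sum of Msr1 and Marco in KCs and 0.930% ± 0.222 in AMs, against 99.9% ± 0.127 in KC-LCs and 80.4% ± 12.8 in AM-LCs.

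Cd36 (chr5:17781690-17888801, minus strand) encodes the class B scavenger receptor and fatty acid translocase CD36. PMs had 816, 986 and 791 CPM, AMs 445, 469 and 393 CPM, KCs 129, 238 and 137 CPM and MG 0.18, 0.60 and 0.38 CPM. Each neighbour in this order differed, with log2 fold changes of 1.00 ± 0.29 for PMs minus AMs (adjusted p = 0.0169), -1.37 ± 0.29 for KCs minus AMs (adjusted p = 0.00275) and -8.84 ± 0.42 for MG minus KCs (adjusted p = 3.35e-08). The first of these was lost without PM library 2 (adjusted p = 0.0607) or AM library 3 (0.055), and with all 24 libraries in 1 model (0.115). PM-LCs had 5594, 2632 and 5507 CPM, AM-LCs 1606, 3500 and 1983 CPM, KC-LCs 258, 690 and 655 CPM, and MG-LCs 222, 581 and 262 CPM.

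All cultured libraries had more Cd36 than all sorted libraries of the same population. The mean was 5.30-fold higher in PM-LCs (log2 fold change -2.40 ± 0.31, adjusted p = 0.00163), 5.43-fold higher in AM-LCs (-2.44 ± 0.29, adjusted p = 0.000693) and 3.18-fold higher in KC-LCs (-1.64 ± 0.43, adjusted p = 0.023). The call in KCs was lost without KC library 3 (adjusted p = 0.0808), KC-LC library 2 (0.0836) or KC-LC library 3 (0.0698). In MG, where 46 reads were counted in 3 libraries, the mean was 924-fold higher in culture (-9.90 ± 0.75, adjusted p = 0.000804). The change in MG differed from that in KCs by -8.19 ± 0.73 on the log2 scale (adjusted p = 3.02e-07), from that in PMs by -7.45 ± 0.72 (adjusted p = 5.4e-07) and from that in AMs by -7.42 ± 0.72 (adjusted p = 5.07e-07). Among KCs, PMs and AMs, no difference in change was called, with differences of 0.04 to 0.77 (adjusted p of at least 0.445).

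Scarb1 (chr5:125277087-125341094, minus strand) encodes SR-BI, the receptor for the selective uptake of cholesterol esters from high-density lipoprotein. It was the member with the narrowest range in culture. KCs had 351, 506 and 516 CPM, AMs 251, 283 and 288 CPM, PMs 87.5, 85.7 and 96.0 CPM, and MG 67.7, 59.5 and 68.0 CPM. All neighbours in this order differed, with 0.75 ± 0.15 for KCs minus AMs (adjusted p = 0.00233), -1.60 ± 0.16 for PMs minus AMs (adjusted p = 1.08e-05) and -0.52 ± 0.15 for MG minus PMs (adjusted p = 0.0169). The smallest of these was lost without MG library 2 (adjusted p = 0.088) or PM library 3 (0.067), without a filter on low counts (0.0547) and with all 24 libraries in 1 model (0.145).

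In culture, the group means of Scarb1 lay closer together: KC-LCs had 237, 222 and 173 CPM, AM-LCs 129, 114 and 130 CPM, PM-LCs 106, 108 and 110 CPM, and MG-LCs 124, 240 and 98.0 CPM. All KC-LC libraries still lay above all PM-LC and AM-LC libraries. KC-LCs minus PM-LCs was not called (0.97 ± 0.28, adjusted p = 0.169), but was with DESeq2 (0.0271) and all 24 libraries in 1 model (0.0369). That model also called KC-LCs minus AM-LCs (0.0416), which was not called otherwise (0.74 ± 0.28, adjusted p = 0.132) except without MG-LC library 2 (0.0393). Scarb1 was higher ex vivo in KCs (log2 fold change 1.15 ± 0.26, adjusted p = 0.0128) and AMs (1.13 ± 0.12, adjusted p = 0.0005), and higher in vitro in MG (-1.29 ± 0.35, adjusted p = 0.0265). In PMs, the difference of -0.27 ± 0.15 was not called (adjusted p = 0.214), although all PM-LC values lay above all PM values. The call in KCs was lost without KC-LC library 2 (adjusted p = 0.0568) or 3 (0.0599), and the call in MG was lost without MG library 1, 2 or 3 (0.0911 to 0.105) and with a replicate block (0.0631). The change in MG was opposite to that in KCs, with a difference of -2.36 ± 0.34 (adjusted p = 6.52e-05), and to that in AMs, with -2.38 ± 0.34 (adjusted p = 4.12e-05). Per kb of exon, Cd36 made up 1.41% ± 0.855 of the sum of Cd36 and Scarb1 in MG against 84.1% ± 2.86 in MG-LCs, and 46.0% ± 7.08 in KCs against 83.3% ± 9.85 in KC-LCs.

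Counted over the 10 genes, the populations differed in direction (see the plot of fold changes). In MG, 8 of the 10 passed the filter on low counts, of which 1 was higher ex vivo (background 21.2% of 14416 genes tested) and 6 were higher in vitro (25.2%). Their median log2 fold change was -3.44 against -0.03 over all genes tested. In KCs all 10 were tested, and 5 were higher ex vivo (19.4% of 13629 genes), or 4 without the gated Timd4, and 3 in vitro (14.4%). In PMs 2 of 10 were higher ex vivo (12.1% of 13581 genes) and 3 in vitro (16.8%). In AMs 4 of the 8 genes tested were higher ex vivo (22.9% of 13196 genes) and 4 in vitro (25.9%). For KCs the median over the genes tested was 0.45 (0.01 over all genes), for PMs 0.04 (-0.01) and for AMs -0.66 (-0.04). Leaving out the doubted libraries left 7 calls in MG without MG-LC library 1, 7 in KCs without KC library 1, 5 in PMs without PM-LC library 2 and 8 in AMs without AM-LC library 3.

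**Figure D3:**
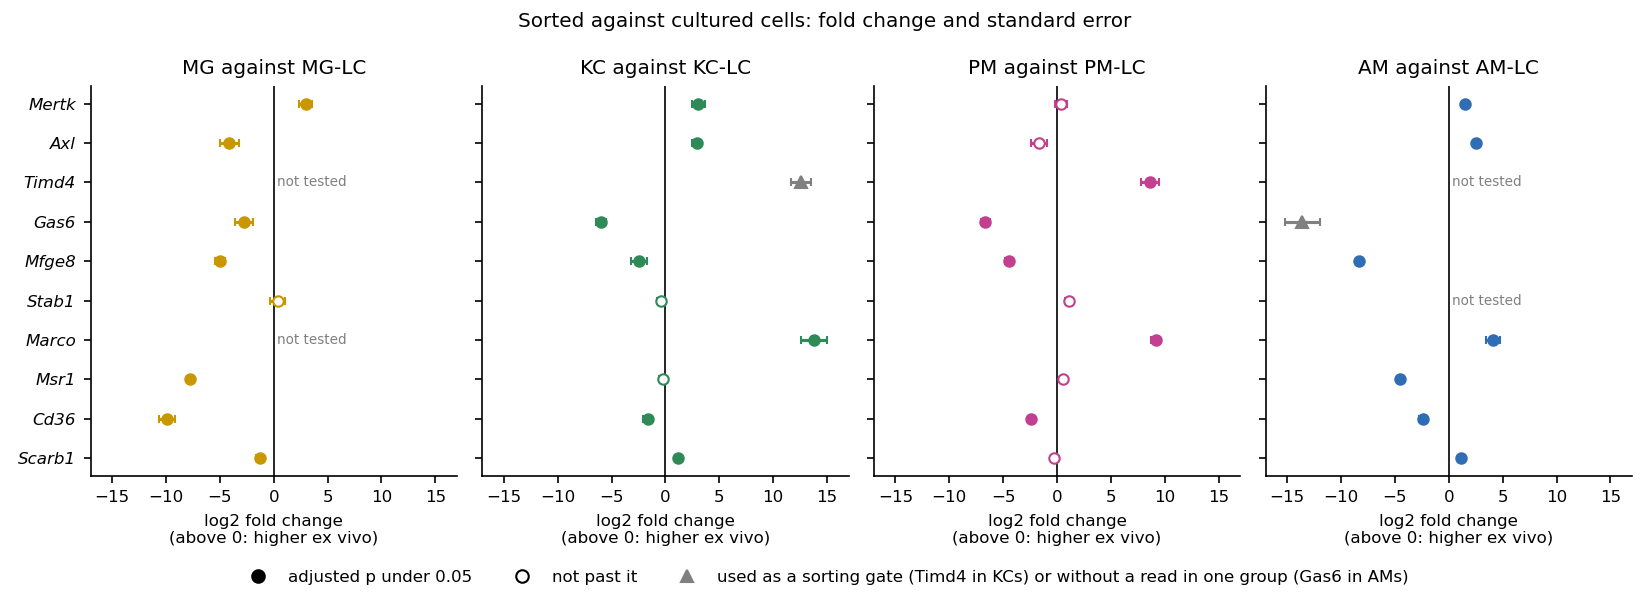
Log2 fold change of sorted against cultured cells with its SE for each gene (rows) in each population (panels), filled where the adjusted p was under 0.05 and with triangles for Timd4 in KCs, which were gated on TIM-4, and for Gas6 in AMs, where no read was counted and the position depends on the prior count. Gas6, Mfge8 and Cd36 lie left of 0 in every panel, Marco lies right of 0 in the 3 panels where it was tested, and Axl and Scarb1 lie on different sides in MG and in KCs.

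All 10 genes were called in the test of an interaction between state and population, as were 36.3% of the 17408 genes tested, and all 10 were also called when MG-LC library 1, PM-LC library 2 and AM-LC library 3 were left out together. Timd4 entered both counts with sorted KCs that were gated on TIM-4. Most of these genes also differed between sorted populations. Of the 60 comparisons of 1 gene between 2 sorted populations, 51 were called, or 49 of 57 without Timd4 in pairs with KCs. By pair, 9 of 10 genes were called between MG and KCs (42.2% of 15732 genes), 10 between MG and PMs (44.7%), 8 between MG and AMs (54.7%), 7 between KCs and PMs (35.8%), 8 between KCs and AMs (43.5%) and 9 between PMs and AMs (36.7%). The counts of KCs with MG and with AMs include the gated Timd4.

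Of the 60 comparisons between cultured populations, 10 were called, all in pairs with AM-LCs, which differed from the others in growth factor, oxygen and glucose. Replicates spread more in MG-LCs than in MG (chi-square per degree of freedom 272.5 to 845 against 12.9 to 20.6). The same held for PM-LCs (157 to 374 against 40.9 to 56.9) and AM-LCs (151 to 165 against 27.2 to 50.4), but not clearly for KC-LCs (144 to 295 against 86.5 to 321). The part of this spread in the number of calls was not tested. AM-LCs differed from MG-LCs in 5 genes (8.59% of 14813 genes), from KC-LCs in 4 (7.64%) and from PM-LCs in 1 (5.29%). Beside the 4 differences in Gas6 and Mfge8 given above, Marco was higher in AM-LCs, with log2 fold changes of -5.52 for MG-LCs minus AM-LCs (adjusted p = 0.0354) and -8.74 for KC-LCs minus AM-LCs (adjusted p = 0.0129). Cd36 was also higher there, with -2.74 (adjusted p = 0.0144) and -2.16 (adjusted p = 0.0334). Stab1 was lower in AM-LCs than in MG-LCs by 6.52 (adjusted p = 0.0358), and Gas6 was lower than in PM-LCs by 3.78 (adjusted p = 0.0319). All 6 of these calls were lost without AM-LC library 2, with adjusted p = 0.15 and 0.0539 for Marco, 0.0712 and 0.137 for Cd36, 0.11 for Stab1 and 0.0878 for Gas6, and each also without at least 1 other library, among them MG-LC library 3 for Marco (0.0987), Cd36 (0.0601) and Stab1 (0.0904) against MG-LCs, KC-LC library 2 for Marco (0.0527) and Cd36 (0.098) against KC-LCs, and PM-LC library 1 for Gas6 (0.0924). Without AM-LC library 1, which held nearly all Stab1 reads of its group, Stab1 differed from AM-LCs by 11.26 in MG-LCs (adjusted p = 0.00433), 10.45 in KC-LCs (0.00487) and 8.94 in PM-LCs (0.0114). In the edgeR fit used for these counts, none of the 10 genes was called between MG-LCs and KC-LCs (0% of all genes), MG-LCs and PM-LCs (0.0743%) or KC-LCs and PM-LCs (0.108%). At an unadjusted p under 0.05, edgeR gave 11 of these 30 comparisons, against 6442 of 44439 over all genes. DESeq2 called 10 of the 30 (2914 of 44439 over all genes, of which 1054 between MG-LCs and KC-LCs) and limma-voom 3 (61 of 44439), with Cd36 and Msr1 higher in PM-LCs than in MG-LCs by both tools. Another edgeR fit left out MG-LC library 1, PM-LC library 2 and AM-LC library 3 together. There, Axl was lower in PM-LCs than in KC-LCs (2.36 for KC-LCs minus PM-LCs, adjusted p = 0.0241). It was higher in AM-LCs than in MG-LCs (-2.47 for MG-LCs minus AM-LCs, adjusted p = 0.00478) and PM-LCs (-3.3, 0.00292). With all 24 libraries in 1 edgeR model, calls in pairs without AM-LCs included Cd36, higher in PM-LCs than in MG-LCs (adjusted p = 0.000585) and KC-LCs (0.00198).

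The spread of the 4 group means, taken as the highest minus the lowest mean log2 CPM, was smaller in culture than ex vivo for 9 of the 10 genes (see the plot of the spread by gene). The median spread over the 10 genes was 10.28 ex vivo and 3.94 in vitro. Over the 11121 genes with an average log2 CPM above 0, 78.9% had a smaller spread in culture, with medians of 1.40 and 0.80, so that the direction was that of most genes. Msr1 went from 9.50 to 1.31, Axl from 7.50 to 2.31, Scarb1 from 2.79 to 0.95 and Mertk from 2.53 to 1.36. Mfge8 was the exception, with 2.49 ex vivo and 4.15 in vitro.

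**Figure D4:**
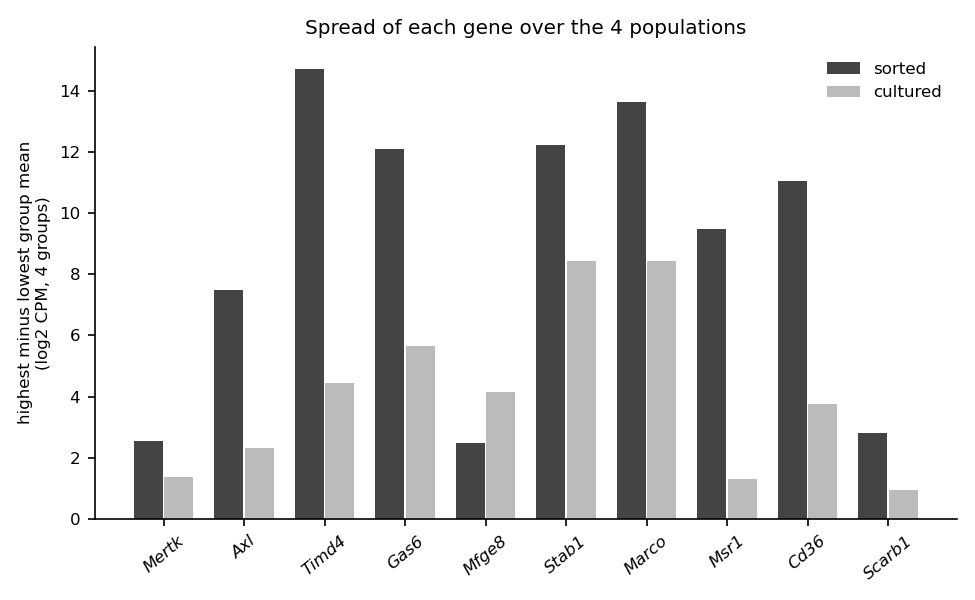
Highest minus lowest of the 4 group means of each gene in log2 CPM, with dark bars for sorted and light bars for cultured populations. The dark bar is the taller for 9 of the 10 genes, while for Mfge8 the light bar is taller (4.15 against 2.49). Bars of genes with a group at 0 reads (Timd4 and Gas6) depend on the prior count.

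Of other genes of these pathways, 4 lists were counted in the same fits. The fit in MG held MG-LC library 1, with 30930 CPM of fibroblast and mesothelium markers, and the list counts were not repeated without it. Their counts are to be read against the shares of all genes called higher ex vivo and in vitro, which were 21.2% and 25.2% in MG, 19.4% and 14.4% in KCs, 12.1% and 16.8% in PMs, and 22.9% and 25.9% in AMs, and several of them lay near these shares. Genes named for 1 population had the largest change there among called genes whose groups did not overlap and whose log2 CPM averaged over 2. They are not thereby particular to it, and could change in the same direction or otherwise in another. Of 19 other apoptotic cell receptors and bridging molecules, 14 were tested in MG with 3 higher ex vivo and 3 in vitro, 14 in KCs with 3 and 4, 14 in PMs with 5 and 5, and 15 in AMs with 4 and 9. The largest change in MG was that of Cd300lb, a lipid-binding receptor of the CD300 family, with 1.62 ± 0.326 CPM ex vivo and 114 ± 77.9 CPM in vitro (log2 fold change -6.17 ± 0.72, adjusted p = 0.00212). Itgb5, the integrin subunit β5, was 2722 ± 74.6 CPM in MG against 418 ± 121 CPM in MG-LCs (2.66 ± 0.36, adjusted p = 0.00331). In PMs the same gene went the other way, from 4.77 ± 1.04 to 476 ± 137 CPM (-6.64 ± 0.34, adjusted p = 3.87e-05). Trem2, a lipid receptor of the immunoglobulin superfamily, was 39.8 ± 10.2 CPM in KCs and 1742 ± 324 CPM in KC-LCs (-5.42 ± 0.36, adjusted p = 0.000182), and Lrp1, an endocytic receptor, was 1677 ± 340 against 442 ± 171 CPM (1.96 ± 0.37, adjusted p = 0.00713). Trem2 was also higher in vitro in PMs (-4.86, adjusted p = 4.17e-05) and AMs (-4.22, 3.17e-05), but was not called in MG (-0.06, 0.93). Thbs1 (thrombospondin 1, a ligand of CD36) was 4696 ± 1603 CPM in PMs and 309 ± 227 CPM in PM-LCs (3.91 ± 0.78, adjusted p = 0.00985), whereas MG (-4.94, adjusted p = 0.0162), KCs (-4.18, 0.00974) and AMs (-8.19, 0.00967) had less of it than their cultures. Pros1, which encodes protein S, another ligand of MERTK, was 568 ± 50.7 CPM in AMs and 165 ± 26.2 CPM in AM-LCs (1.77 ± 0.17, adjusted p = 0.000294). It was called higher ex vivo in all 4 populations, with 1.35 ± 0.44 in MG (adjusted p = 0.0462), 1.88 ± 0.52 in KCs (0.0273) and 2.90 ± 0.33 in PMs (0.000927), a comparison made after its values were seen. C1qa, a subunit of complement C1q, was 0.211 ± 0.187 CPM in AMs and 126 ± 142 CPM in AM-LCs (-9.22 ± 1.23, adjusted p = 0.00105).

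Of 16 genes of the engulfment machinery, 15 were tested in each population, with 2 higher ex vivo and 4 in vitro in MG, 1 and 1 in KCs, 0 and 1 in PMs, and 7 and 1 in AMs. Cybb, the NADPH oxidase subunit of LC3-associated phagocytosis, was 3.00 ± 0.468 CPM in MG against 720 ± 359 CPM in MG-LCs (log2 fold change -7.95 ± 0.58, adjusted p = 0.000786), and Elmo1, an adaptor of RAC activation, was 658 ± 22.8 against 89.1 ± 68.3 CPM (2.84 ± 0.64, adjusted p = 0.0142). In KCs, Vav1 was higher ex vivo (0.88 ± 0.23, adjusted p = 0.021) and Cdc42 in vitro (-1.04 ± 0.29, adjusted p = 0.0264), and in PMs Atg5 was higher in vitro (-0.97 ± 0.17, adjusted p = 0.00601). In AMs, the small GTPase gene Rhog was 318 ± 7.39 against 121 ± 15.8 CPM (1.39 ± 0.12, adjusted p = 0.000209), and the focal adhesion kinase gene Ptk2 was 2.09 ± 0.839 against 49.3 ± 14.7 CPM (-4.58 ± 0.43, adjusted p = 0.000271).

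Of 18 other scavenger receptors, 16 were tested in MG, of which 0 were higher ex vivo and 10 in vitro, with a median log2 fold change of -3.30 against -0.03 over all genes. The part of the fibroblast and mesothelium RNA of MG-LC library 1 in these calls was not tested. Colec12, a class A receptor, was 0.0477 ± 0.0827 CPM in MG against 267 ± 87.7 CPM in MG-LCs (-12.39 ± 1.08, adjusted p = 0.00103). In KCs 5 of 14 were higher ex vivo and 3 in vitro. Stab2, the relative of Stab1, was 301 ± 85.7 CPM in KCs and 0.0980 ± 0.0875 CPM in KC-LCs (11.56 ± 0.76, adjusted p = 0.000182), and is also a marker of the sinusoidal endothelium. In PMs 2 of 12 were higher ex vivo and 3 in vitro. There, the haemoglobin scavenger receptor gene Cd163 was 58.0 ± 18.1 against 5.95 ± 0.757 CPM (3.28 ± 0.29, adjusted p = 0.000321), and Clec7a, the β-glucan receptor dectin-1, was 121 ± 19.6 against 2191 ± 703 CPM (-4.17 ± 0.29, adjusted p = 0.000115). In AMs 3 of 12 were higher ex vivo, among them the mannose receptor gene Mrc1 (1.52 ± 0.20, adjusted p = 0.000975), and 4 in vitro, among them Cxcl16 (-2.67 ± 0.34, adjusted p = 0.000875).

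The last list held 16 nuclear receptors and genes for the handling of ingested lipid, all tested in each population. In MG 2 were higher ex vivo and 7 in vitro, in KCs 5 and 3, in PMs 2 and 8, and in AMs 9 and 4. Nr1h3, which encodes the oxysterol receptor LXRα, was 628 ± 78.4 CPM in KCs and 41.1 ± 16.4 CPM in KC-LCs (3.97 ± 0.39, adjusted p = 0.000675). It was also higher ex vivo in AMs (0.55, adjusted p = 0.0378), but higher in vitro in MG (-3.01, adjusted p = 0.00458) and PMs (-3.76, adjusted p = 0.000857). Lpl (lipoprotein lipase) was 34.7 ± 8.25 CPM in MG against 5282 ± 4368 CPM in MG-LCs (-7.29 ± 1.36, adjusted p = 0.00797), and 1214 ± 141 CPM in KCs and 3720 ± 515 CPM in KC-LCs (-1.58 ± 0.29, adjusted p = 0.00632). It was also higher in vitro in PMs (-2.30, 0.00186) and AMs (-0.60, 0.0278). Mylip, which targets lipoprotein receptors for degradation, was higher ex vivo in MG (2.86 ± 0.60, adjusted p = 0.0113), KCs (1.87, 0.0069) and AMs (2.33, 0.000557), and was not called in PMs (0.60, 0.48). Pparg, a nuclear receptor of lipid metabolism, was 1.02 ± 0.791 CPM in PMs and 78.7 ± 28.9 CPM in PM-LCs (-6.25 ± 0.79, adjusted p = 0.00137). It was also higher in vitro in MG (-12.88, adjusted p = 0.00739), was not called in KCs (-0.89, adjusted p = 0.082) and was higher ex vivo in AMs (1.86, adjusted p = 0.000566). Ucp2, a mitochondrial carrier, was higher ex vivo in PMs (1.44 ± 0.20, adjusted p = 0.00205) and AMs (2.67 ± 0.15, adjusted p = 4.92e-05), and the lysosomal cholesterol carrier gene Npc2 was higher in AM-LCs (-1.87 ± 0.18, adjusted p = 0.000279).

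The genes whose log2 CPM followed each member most closely over the 24 libraries were looked up among 8382 genes with an average log2 CPM above 3. The libraries form 8 groups of 3, so that the correlations mainly describe group means. For Cd36 they were Mgst1 (Pearson's r = 0.969) and Sh3bgrl (0.962), for Msr1 Aldh2 (0.967) and Ifitm2 (0.951), for Gas6 Tef (0.965), and for Mfge8 Tceal8 (0.922) and Tceal9 (0.920). For Mertk they were Frmd4a (0.933) and Tnfrsf21 (0.929), for Stab1 Sgsh (0.933) and Maf (0.929), for Scarb1 Mta3 (0.931) and Pkmyt1 (0.906), and for Marco Fgr (0.930) and Cd302 (0.911). Axl was closest to Tfec (0.892) and Il1rn (0.890), and Timd4 to Fcna (0.897) and Agtrap (0.896).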

How the data were processed

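RNA sequencing was analysed for 24 libraries in 8 groups of 3, mapped to groups by the sample labels. Libraries were made with SMARTer Ultra Low Input and Nextera XT kits, which do not mark the strand, and single reads were sequenced. The deposited values are raw read counts of each gene, not normalized by the authors. The paper describes trimming with Trimmomatic and alignment with STAR to mm10, while the submitters' processing notes list Trimmomatic 0.36, STAR 2.5.2b and the human build hg19. The table lists mouse Ensembl identifiers, so hg19 was not used here. Symbols, coordinates and exon lengths came from GENCODE vM21 (GRCm38) by identifier, and 45143 of 45706 identifiers had a symbol. All 24 columns belonged to a sample.

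In R 4.3.3, sorted and cultured libraries of each population were compared with the quasi-likelihood test of edgeR 4.0.16 (TMM, filterByExpr with a minimum count of 10, two-sided, Benjamini-Hochberg over all genes tested, threshold 0.05). Sorted libraries, cultured libraries and the interaction of state and population were fitted over 12, 12 and 24 libraries. Log2 CPM had a prior count of 2, and the SE of a log2 fold change was derived from the F statistic. Values after ± are SDs over 3 libraries unless marked as SE. The procedure was tested on simulated data. The 10 genes and the lists were chosen with earlier results of these data known. Of each list and population, the gene with the largest log2 fold change in each direction is named, among called genes whose groups did not overlap and whose log2 CPM averaged over 2, and some genes that this names are not reported here. Cells of several mice were pooled for a culture flask, and no source used here says which libraries share mice, so that p-values measure the spread between libraries. Replicate libraries of a group differed by more than counting error (chi-square per degree of freedom 12.9 to 845). Counts of 29569486 to 47105111 reads per library set the floor of at most 0.115 CPM. Alternatives were limma-voom (limma 3.58.1), the test named in the methods of the study, DESeq2 1.42.0, RLE size factors, no filter, a filter of 1 CPM in 3 libraries, all 24 libraries in 1 model, a replicate block, fold change thresholds and leaving out each library, and, added after seeing the data, leaving out MG-LC library 1, PM-LC library 2 and AM-LC library 3 together.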

Additional observations from a re-analysis of the deposited data

Results flagged for a closer look

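For all 10 genes, the change from sorted to cultured cells differed between the 4 populations in the interaction test of edgeR over 24 libraries (3 libraries per group), for which they are listed here. The adjusted p was 2.59e-10 for Msr1, 4.23e-07 for Cd36, 5.02e-07 for Marco, 1.75e-05 for Timd4, 3.33e-05 for Scarb1, 6.76e-05 for Axl, 0.000144 for Mfge8, 0.000535 for Gas6, 0.0189 for Stab1 and 0.0269 for Mertk. The same test called 36.3% of all genes. Timd4 is in this list with sorted KCs that were gated on its product. Stab1 and Mertk were the members whose call was lost in some of the fits that left out 1 library. For Stab1 this was the case without AM library 1, AM library 3 or AM-LC library 1 (adjusted p = 0.321 for the last), and for Mertk without PM library 1, PM library 3 or PM-LC library 3 (adjusted p up to 0.0769).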

How the results depend on the processing

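No result changed its direction with a call on both sides. The counts of members called moved by more than 1.5 times with DESeq2 in PMs (8 against 5) and between cultured populations (27 against 10 of 60), and for the latter also with all 24 libraries in 1 model (22). With a log2 fold change above 1.5 in addition, the genes of the 4 pathway lists that were called fell from 26 to 16 in PMs and from 41 to 22 in AMs. Leaving out 1 library gave 4 (without any of the MG libraries) to 7 members for MG, 5 (without KC-LC library 2 or 3) to 8 for KCs, 5 to 7 for PMs, 8 for AMs, 47 to 53 calls between sorted and 4 (without AM-LC library 2) to 15 (without MG-LC library 1) between cultured populations, and 9 to 10 members with an interaction. With MG-LC library 1, PM-LC library 2 and AM-LC library 3 left out together, 14 calls between cultured populations and 10 interactions were found.

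Libraries with the same number did not deviate together (correlation of deviations -0.14 to 0.069). This cannot show whether any of them shared mice, and the numbers were not used as pairs. A replicate block gave 5 called members for MG, 8 for KCs, 6 for PMs, 8 for AMs, 51 calls between sorted populations, 7 between cultured populations and 10 interactions. Of values for single members and comparisons, 1133 kept their side of the threshold under the settings that keep all libraries, 60 gained a call and 17 lost it, and with 1 library left out 1785 kept it, 23 gained it and 88 lost it. RLE size factors moved the median of all genes by at most 0.06 between groups and by up to 0.16 in the pairwise interactions. Depth limits Timd4 in MG and AMs and Gas6 in AMs, where no read was counted.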
